A study of Mus musculus with 15 samples.

Results

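Embryonic germ cell (EGC) lines carrying 2 X chromosomes, made from mouse germ cells of embryonic stage E11.5, were compared with XX embryonic stem cell (ESC) lines. The comparison used 2 XX EGC libraries, named EGC 7 and EGC 9, and 3 XX ESC libraries, named ESC 1, ESC 2 and ESC 3. They are 5 of the 15 libraries of the series, and the karyotype and the embryonic day were read from the header of the deposited table. All genes with at least 1 TPM (transcript abundance corrected for length, with a fixed sum per library) in at least 2 of these 5 libraries were taken, which gave 13193 of 34372 genes. All libraries were grown on mouse embryonic fibroblast feeders with LIF and serum, were sorted for the surface antigen SSEA1 and were taken at passage 6. The growth protocol also names a 2i-LIF medium for the first outgrowth. Strain and line are not given in the sources used here. Libraries under 1 header label may be clones of 1 line, so the spread between them may be technical, and line and cell origin cannot be told apart. The other header labels were E11.5 XY EGC (EGC 4 to 6), XY ESC (ESC 4 to 6), E12.5 XY EGC (EGC 1 to 3) and E11.5 XO EGC (EGC 8).

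Primordial germ cells are the embryonic precursors of sperm and eggs, and in culture they can be converted into EGC, pluripotent lines that resemble ESC from the early embryo. In vivo, these cells lose most of their DNA methylation, including the parental marks at imprinted genes, and activate germline genes whose promoters are methylated in body cells. Female ESC keep both X chromosomes active and are known for lower DNA methylation and weaker MAPK signalling than male ESC.

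The defining genes of pluripotent cells were high in all 5 XX libraries. Pou5f1, the core pluripotency factor, was at 1541 and 1328 TPM in the XX EGC and at 1400, 1255 and 1504 TPM in the XX ESC. The log2 difference of Pou5f1 was 0.05 (adjusted p = 0.783). Of 16 genes of primordial germ cell identity, 13 were tested, 1 was higher in the XX EGC, 1 was lower and 11 did not pass, where 4.49% of all genes were higher and 9.35% lower. Without ESC 3, 2 were higher and 3 lower, and without EGC 7 or EGC 9 none passed. The higher one was Dnd1, an RNA-binding protein of germ cells, and the lower one was Prdm14, a regulator shared by germ cells and ESC. The Dnd1 call was lost without EGC 7 or EGC 9 (adjusted p = 0.089 and 0.0886). The summed levels of the 16 genes overlapped, at 1129 and 1107 TPM in XX EGC and 990 to 1116 TPM in XX ESC. The 8 Y-linked genes summed to at most 0.441 TPM in the 5 XX libraries and to 119 to 187 TPM in the XY libraries, and none was tested. Xist, the RNA that silences an X chromosome, was at 0.669 and 1.65 TPM in XX EGC and at 1.096, 1.73 and 0.615 TPM in XX ESC.

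Several measures set single libraries apart. ESC 3 had a raised chromosome 13: the median deviation of its genes from the 15-library mean, less that of all autosomes, was 0.474 on the log2 scale. The same score was between -0.0986 and 0.0393 in the other 14 libraries. The rise spanned the whole chromosome. Measured from the mean of ESC 1 and ESC 2 instead, less the same over all autosomes, it was 0.487, 0.523, 0.494 and 0.491 in 4 successive parts. EGC 9 had raised mitochondrial ribosomal RNA, at 0.191% of TPM against 0.0656% in EGC 7 and 0.0742% to 0.0901% in the XX ESC. Small structural RNA was at 0.12% in EGC 9 and 0.0204% in EGC 7. It was also high in some XY libraries, at 0.185% in EGC 3 and 0.18% in EGC 6. A single row, mmu-mir-703, took up to 2.73% of a library (ESC 4, an XY library). It was near 0 in EGC 9 but at 10964 TPM in EGC 7 and 11441 to 23086 TPM in the XX ESC. This was not particular to EGC 9, since 6 of the 15 libraries had under 0.001 TPM.

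**Figure D1:**
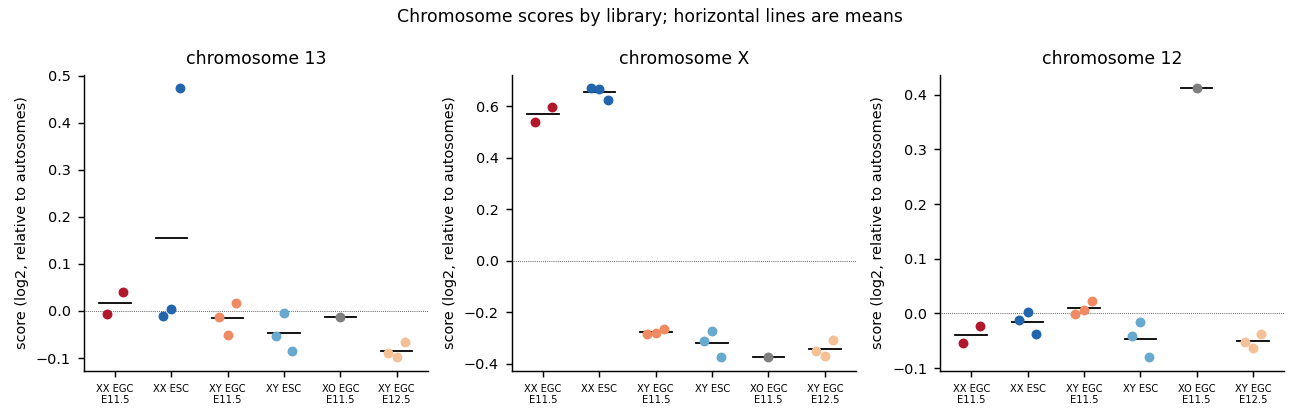
Scores of chromosomes 13, X and 12 for each library (log2 deviation relative to all autosomes), with 1 point per library and a line at the group mean. ESC 3 stands at 0.474 on chromosome 13, all 5 XX libraries lie above 0.5 on the X, and the XO library stands at 0.412 on chromosome 12.

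The 5 XX libraries also differed along transcript length. Genes were divided into 5 equal classes by their longest annotated transcript. In the longest class (5060 bases or more), the median deviation was -0.148 in EGC 7, -0.0838 in EGC 9, 0.172 in ESC 1, 0.0947 in ESC 2 and -0.031 in ESC 3. EGC and ESC did not overlap, but ESC 3 lay nearer to EGC 9 than to ESC 2. In this class 29 genes were higher in XX EGC and 519 lower, and in the shortest class 247 were higher and 152 lower. The median log2 difference went from 0.06 in the shortest class to -0.20 in the longest in the XX comparison, and went from -0.07 to 0.02 in the XY comparison. Fragment length, RNA integrity and library date are not given in the sources used here, and their part in the results was not tested. A fit adjusted for transcript length was therefore added after the data had been seen, and its counts are given beside the groups of genes below where they differ from those without it.

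**Figure D2:**
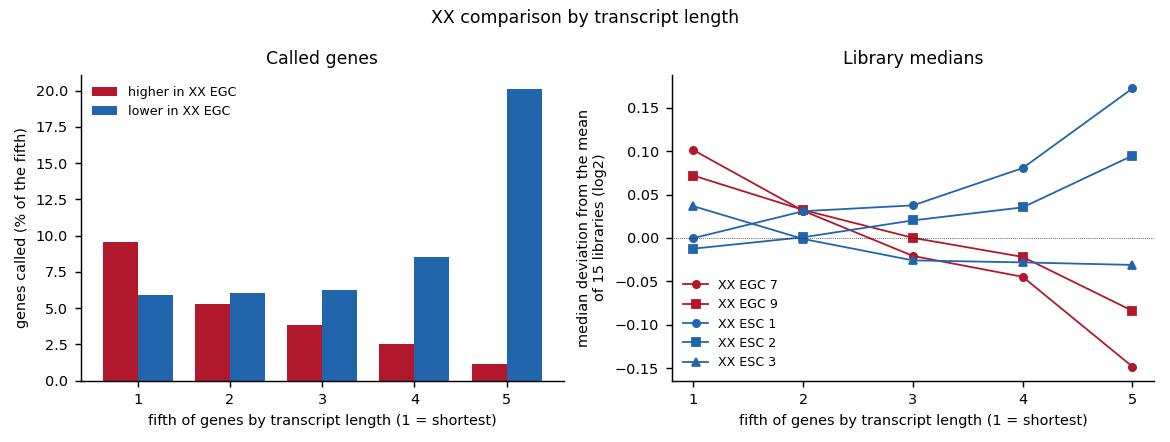
Left, percent of genes in each of 5 classes of transcript length that were higher (red) or lower (blue) in XX EGC than in XX ESC. Right, median log2 deviation of the 5 XX libraries from the mean of 15 libraries in each class. Lower calls reach 20.1% in the longest class, where both XX EGC lie below all 3 XX ESC.

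Of the 13193 genes, 593 were higher in XX EGC (4.49%) and 1234 were lower (9.35%) at an adjusted p under 0.05 in limma on log2(TPM + 1). Differences of at least 2-fold were fewer and balanced, with 63 genes higher (0.478%) and 61 lower (0.462%). A lack of overlap between the groups was common. Without regard to the test, 2416 of the 13193 genes were higher in the XX EGC without overlap and 3753 lower. The median log2 difference of all genes was -0.05. Higher calls made up 32.5% of all calls, 45.1% after median-ratio scaling, 48% after quantile normalization and 51.2% after the length adjustment, which called 767 genes higher and 730 lower. The excess of lower calls thus depended on the scaling. On the log2(TPM + 1) scale the change of genes near or below 1 TPM is understated. Without EGC 9, 125 genes were higher and 324 lower. Without EGC 7, the counts were 162 and 219, without ESC 1 they were 349 and 611, and without ESC 2 they were 351 and 751. The XX calls on single genes given below were kept with each of the 5 libraries left out in turn unless a loss is stated. A fit without 1 XX EGC assumes that the remaining one varies like the other groups. For single genes, the XY differences and the tests of XX against XY were not followed with a library left out.

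The lowest adjusted p of all 13193 genes was that of an imprinted gene. Meg3, the maternally expressed long noncoding RNA of the Dlk1-Dio3 domain on chromosome 12, was at 197 and 194 TPM in XX EGC and at 53.9, 50.8 and 46.5 TPM in XX ESC. The groups were far apart, with means 3.88-fold higher in XX EGC (log2 difference 1.94 ± 0.11 SE, adjusted p = 8.86e-07). In XY cells Meg3 was also higher in EGC (log2 difference 1.74 ± 0.09), and a difference between the XX and XY comparisons did not pass the test (0.20, adjusted p = 0.349). Its level in XX EGC overlapped that of XY ESC, at 199, 182 and 214 TPM, and the XO EGC library had 665 TPM. The promoter window of Meg3, 250 bases before to 50 after its start in RefSeq on GRCm38.p6 (chr12:109540746-109541045, plus strand), is shown because DNA methylation acts on CG pairs, printed in capitals. It holds 13 of them, and methylation was not analysed here.
Meg3: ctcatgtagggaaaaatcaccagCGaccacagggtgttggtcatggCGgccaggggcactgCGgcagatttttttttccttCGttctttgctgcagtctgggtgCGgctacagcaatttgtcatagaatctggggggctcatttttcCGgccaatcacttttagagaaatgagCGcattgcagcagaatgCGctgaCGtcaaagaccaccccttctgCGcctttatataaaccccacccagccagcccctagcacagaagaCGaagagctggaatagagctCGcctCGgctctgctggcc

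The other imprinted genes moved in both directions. Among 23 tested genes expressed from the paternal allele, 4 rose (2 or 3 with 1 library left out) and none fell, where 4.49% and 9.35% of all genes did, and their median log2 difference was 0.07. Snrpn, a splicing protein gene of the Prader-Willi region, was at 155 and 148 TPM in XX EGC and at 102, 98.0 and 97.4 TPM in XX ESC. The groups did not overlap, and Snrpn rose by 0.60 ± 0.07 (log2, adjusted p = 0.000482). Mest, a mesoderm-expressed hydrolase gene, was at 41.4 and 45.0 TPM against 26.5, 22.1 and 22.2 TPM, with no overlap (0.85 ± 0.12, adjusted p = 0.00104). Ddc (aromatic amino acid decarboxylase) and Dlk1 (a Notch-type ligand) rose by 0.76 and 0.79. The Ddc call was lost without EGC 7, EGC 9, ESC 1 or ESC 3 (adjusted p = 0.0619 to 0.158). The Dlk1 call was lost with any of the 5 libraries left out (adjusted p = 0.0569 to 0.301).

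Among 17 tested genes expressed from the maternal allele, Meg3 was the 1 that rose and 3 fell. Of all genes 4.49% rose and 9.35% fell. Cdkn1c, a cell cycle inhibitor, was at 2.85 and 2.09 TPM in XX EGC and at 6.37, 8.67 and 4.90 TPM in XX ESC. It fell by 1.12 ± 0.19 on the log2 scale (adjusted p = 0.00351), and all XX ESC lay above both XX EGC. Igf2r, a receptor that clears IGF2, was at 14.3 and 15.7 TPM against 29.3, 27.95 and 23.6 TPM, and its log2 difference was -0.80 ± 0.10 (adjusted p = 0.000663). Slc22a18, a transporter gene beside Cdkn1c, was at 1.36 and 1.14 TPM against 3.13, 2.73 and 3.22 TPM (-0.84 ± 0.11, adjusted p = 0.000833). For both genes no XX EGC value reached the lowest XX ESC value. The XY difference was -1.12 for Cdkn1c, -0.61 for Slc22a18 and -0.26 for Igf2r, and the XX difference was larger for Igf2r (by -0.54, adjusted p = 0.0172).

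The H19 and Igf2 pair, the classical imprinted neighbours, gave wide errors, with log2 differences of -0.98 ± 0.47 and -0.67 ± 0.39, and neither passed. Dio3, the deiodinase gene at the far end of the Meg3 domain, was at 1.43 and 1.14 TPM in XX EGC and at 2.33, 1.46 and 2.07 TPM in XX ESC (-0.36 ± 0.14, adjusted p = 0.104). In XY cells Dio3 rose by 1.21, and the XX difference was lower by 1.57 (adjusted p = 0.000504). Within this domain Meg3 and Dlk1 therefore passed in the XX comparison, while Dio3 and Begain did not.

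**Figure D3:**
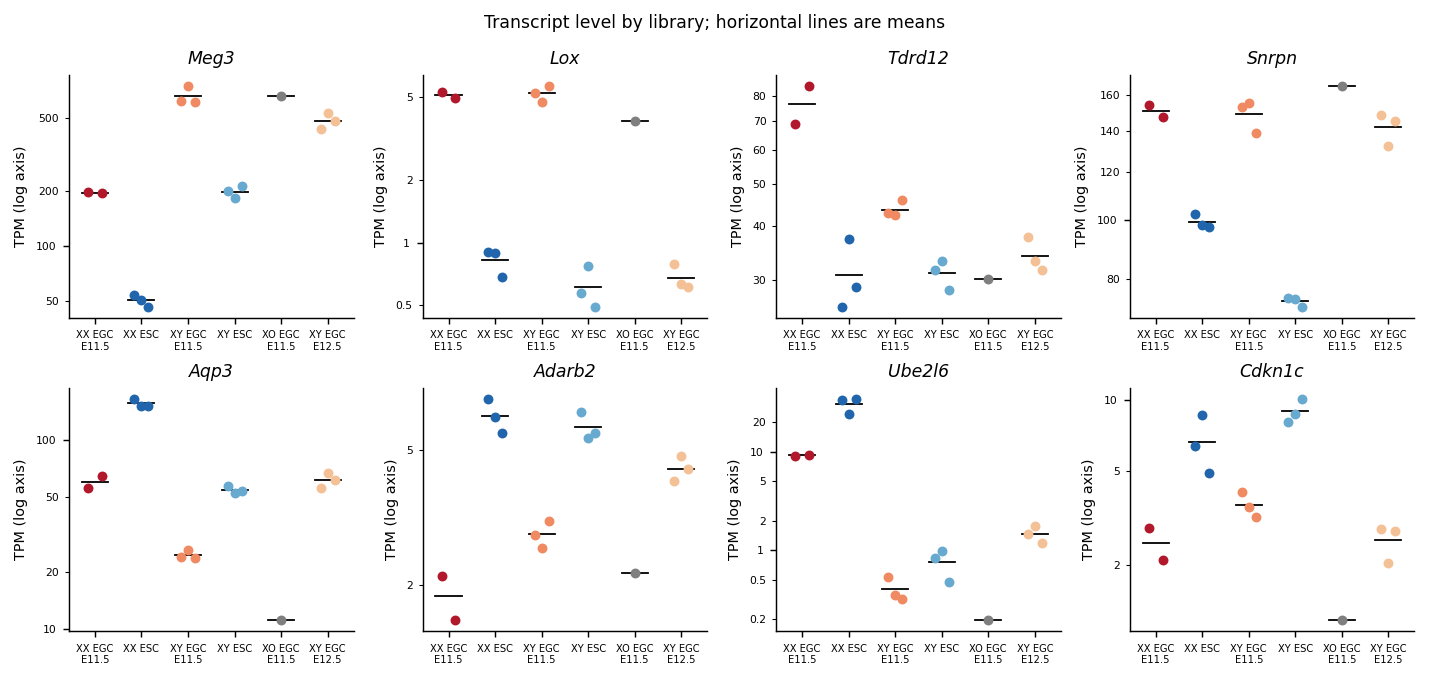
TPM (log axes) of 8 genes in each library, with 1 point per library and a line at the group mean. Meg3, Lox, Tdrd12 and Snrpn are higher in both XX EGC than in all 3 XX ESC, and Aqp3, Adarb2, Ube2l6 and Cdkn1c are lower in both.

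Of 34 tested germline genes that promoter methylation silences in body cells, 1 rose, 9 fell and 24 did not pass. Of all genes 4.49% rose and 9.35% fell, so falls outnumbered rises there too, and the median log2 difference was -0.33 against -0.05 for all genes. The 1 that rose was Tdrd12, a Tudor-domain protein of the piRNA pathway, which defends germ cells against transposons. Tdrd12 was at 68.9 and 84.5 TPM in XX EGC and at 26.01, 37.3 and 28.9 TPM in XX ESC. It rose by 1.30 ± 0.13 (adjusted p = 0.000262), with means 2.49-fold apart and no overlap. In XY cells its difference was 0.48, and the XX difference was larger by 0.82 (adjusted p = 0.0105). The other 14 tested genes of the Tudor and piRNA list gave no further rise, and 3 of them fell (0 or 1 with any 1 library left out, and 1 after the length adjustment).

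Tuba3b, a testis alpha-tubulin, was at 4.66 and 3.83 TPM in XX EGC and at 10.1, 10.1 and 15.1 TPM in XX ESC (-1.26 ± 0.18, adjusted p = 0.00159). Its near-identical copy Tuba3a was lower too (-0.67 ± 0.19, adjusted p = 0.0337, not followed through the alternatives), and reads of the pair may have been split between them. Brdt, a testis bromodomain protein, was at 3.73 and 3.81 TPM against 7.06, 7.01 and 9.83 TPM (-0.90 ± 0.15, adjusted p = 0.00343). The XX ESC lay above the XX EGC for each of these 3 genes. Xlr, an X-linked lymphocyte gene with germ cell expression, was at 11.2 and 14.7 TPM against 18.4, 19.7 and 26.1 TPM. Its call (-0.68, adjusted p = 0.0142) was lost without EGC 7 (adjusted p = 0.168). In the 6 libraries of E11.5 XY EGC and XY ESC, Xlr was at most 0.188 TPM and Tuba3b at most 0.763 TPM.

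The count of germline genes that fell was between 2 and 6 with 1 library left out, and was 6 after the length adjustment. With EGC 9 and ESC 3 both left out, 4 fell and Tdrd12 rose. In the test of XX against XY, 12 of the 34 had a lower EGC to ESC difference in XX and 1 a higher one, where 10% and 6.50% of all genes did. The promoters of Tdrd12, Tuba3b and Brdt are shown because these genes moved in opposite directions (CG pairs in capitals, same window and build).
Tdrd12: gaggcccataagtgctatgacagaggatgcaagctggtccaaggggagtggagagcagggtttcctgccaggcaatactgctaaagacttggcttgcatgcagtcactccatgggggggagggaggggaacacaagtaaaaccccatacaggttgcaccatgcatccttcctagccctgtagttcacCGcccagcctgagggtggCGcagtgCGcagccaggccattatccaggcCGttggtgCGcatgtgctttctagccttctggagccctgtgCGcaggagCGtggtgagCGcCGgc
Tuba3b: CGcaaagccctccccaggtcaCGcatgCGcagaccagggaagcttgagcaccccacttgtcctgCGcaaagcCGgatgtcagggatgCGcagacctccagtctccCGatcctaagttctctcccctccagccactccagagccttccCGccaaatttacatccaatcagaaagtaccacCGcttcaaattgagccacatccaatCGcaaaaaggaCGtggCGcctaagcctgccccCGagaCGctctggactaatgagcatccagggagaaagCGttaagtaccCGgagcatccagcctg
Brdt: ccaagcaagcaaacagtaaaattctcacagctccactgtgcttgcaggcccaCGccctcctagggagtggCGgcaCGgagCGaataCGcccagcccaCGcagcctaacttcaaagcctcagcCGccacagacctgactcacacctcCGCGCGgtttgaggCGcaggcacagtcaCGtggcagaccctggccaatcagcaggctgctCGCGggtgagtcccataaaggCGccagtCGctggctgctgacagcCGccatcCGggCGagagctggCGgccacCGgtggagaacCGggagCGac

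They lie at chr7:35537695-35537994 on the minus strand, at chr6:145615713-145616012 on the plus strand and at chr5:107330944-107331243 on the plus strand. Tdrd12 has 9 CG pairs, Tuba3b 16 and Brdt 23, and the median over the 32 germline genes with an entry was 17. The E-box CACGTG, which reads the same on both strands, occurs once in Brdt and not in Tdrd12 or Tuba3b. It is held by 40.6% of these 32 promoters and by 7.15% of all 32851 promoters in the table. The letters GCGGGA, on either strand, occur once in Tuba3b, and in 46.9% of the 32 and 20% of all promoters. Among the 9042 tested genes with an entry the shares were 10.5% and 37.3%, and the median number of CG pairs was 21. The 32 genes are part of these 9042, which are therefore the closer comparison. They are only 68.5% of the tested genes, and nothing is known here of the rest. A match of one motif cannot cover the other, and a match is only a match of letters.

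**Figure D4:**
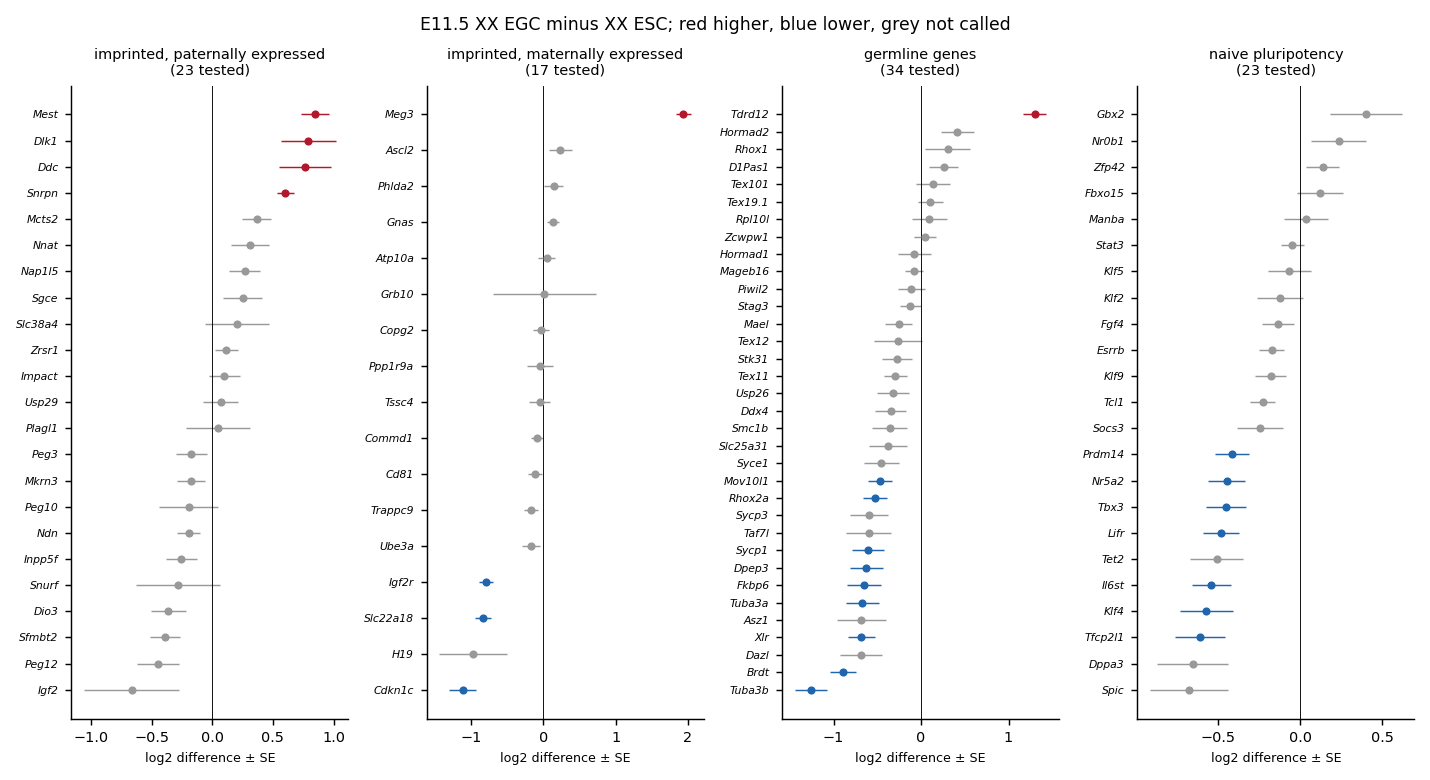
Log2 difference between XX EGC and XX ESC with its SE for every tested member of 4 gene lists. Red members passed the test as higher, blue as lower, and grey did not pass. Meg3 (1.94) and Tdrd12 (1.30) are the highest of their lists, and Cdkn1c (-1.12) and Tuba3b (-1.26) the lowest of theirs.

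Lox and some other genes of the extracellular matrix and of fibroblasts were higher in the XX EGC, while Fn1 was lower. Lox, a lysyl oxidase that crosslinks collagen, was at 5.33 and 4.94 TPM in XX EGC and at 0.898, 0.888 and 0.681 TPM in XX ESC. The groups were 6.25-fold apart in mean (log2 difference 1.75 ± 0.12, adjusted p = 3.81e-06). In XY cells Lox rose by 1.95, and the XO EGC had 3.85 TPM, while the 3 E12.5 XY EGC stayed below 1 TPM. S100a4, a calcium-binding protein of fibroblasts, rose by 1.37 ± 0.15 (adjusted p = 0.000346), from 1.58, 1.09 and 1.42 TPM in XX ESC to 5.07 and 5.11 TPM in XX EGC. The collagen gene Col1a1 was at 5.61 and 4.83 TPM against 1.47, 1.07 and 1.15 TPM (1.48 ± 0.40, adjusted p = 0.0267). Its call was lost when EGC 7, EGC 9, ESC 1 or ESC 2 was left out (adjusted p = 0.0557 to 0.159).

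Lox and these genes are also markers of the fibroblast feeders. Of 34 fibroblast markers, 25 were tested: 9 rose, 1 fell and 15 did not pass, where 4.49% of all genes rose and 9.35% fell. The median log2 difference of the 25 was 0.42, against -0.05 for all genes. The summed level of the 34 went the other way, at 692 and 667 TPM in XX EGC and 705 to 754 TPM in XX ESC. Sparc, a matrix protein, made up 287 and 276 TPM of it in XX EGC and 279 to 299.5 TPM in XX ESC. Fn1, whose levels are given below, is also part of this sum. The defining markers Dcn and Lum were at or below 0.134 TPM in all 5 libraries, and Lum was listed at 0 in the 3 XX ESC. Fn1, fibronectin, was the 1 that fell, at 108 and 125 TPM against 237, 206 and 203 TPM (-0.88 ± 0.10, adjusted p = 0.000487). In these bulk samples a change in the number of feeder cells and a change in RNA per cell cannot be told apart. With the mean of the fibroblast markers as a covariate, Lox and S100a4 were still called, and 24 genes in all were higher and 46 lower. This covariate runs close to the groups and is made from the markers themselves, of which 2 were called higher under it. A call kept under it therefore cannot show whether feeder RNA takes part. Between 2 and 7 of the markers rose with 1 library left out, and 11 after the length adjustment. The part of feeder RNA in the other differences was not tested.

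Other genes higher in the XX EGC came from several families. Pla2g7, a secreted phospholipase, was at 15.6 and 13.8 TPM against 4.94, 5.52 and 3.87 TPM (1.45 ± 0.19, adjusted p = 0.000815), and XY EGC were higher than XY ESC as well (1.495). Serpinf1, a secreted serpin, was at 8.03 and 6.65 TPM against 1.47, 3.07 and 2.02 TPM (1.42 ± 0.23, adjusted p = 0.0028). Lefty1, a Nodal antagonist, was at 114 and 100.3 TPM in XX EGC against 55.9, 55.1 and 51.0 TPM (0.97 ± 0.18, adjusted p = 0.00545). The Lefty1 call was lost without EGC 7 (adjusted p = 0.0598). Krt42, a keratin, was at 53.7 and 51.1 TPM against 26.97, 19.9 and 21.1 TPM (1.19 ± 0.18, adjusted p = 0.00202). Eno3, an enolase, was at 14.1 and 14.2 TPM against 7.87, 6.84 and 7.55 TPM (0.84 ± 0.13, adjusted p = 0.00246). Neurod1, a neural transcription factor, was low but higher in both XX EGC, at 3.54 and 2.67 TPM against 1.34, 1.21 and 1.07 TPM (0.89 ± 0.14, adjusted p = 0.0027). For Pla2g7, Serpinf1, Krt42, Eno3, Neurod1 and Lefty1 no XX ESC value reached the lower XX EGC value. Genes named as the largest differences were picked under that condition, so it adds no support for them.

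Of the genes lower in XX EGC, Aqp3 is a water and glycerol channel. It was at 55.5 and 64.6 TPM in XX EGC and at 165, 152 and 152 TPM in XX ESC, a mean 2.6-fold lower (-1.37 ± 0.09, adjusted p = 3.81e-06). XY EGC showed a fall of 1.11, to 24.1, 26.2 and 23.6 TPM from 56.9, 52.4 and 53.7 TPM in XY ESC, and the XO EGC was at 11.2 TPM. Of the 10 aquaporin genes in the table, Aqp11 was the other one tested and did not pass (-0.21 ± 0.14, adjusted p = 0.347). Adarb2, a brain relative of the RNA-editing adenosine deaminases, lies on chromosome 13. It was at 2.13 and 1.58 TPM against 7.07, 6.25 and 5.62 TPM (-1.36 ± 0.12, adjusted p = 0.000114). ESC 3, the library with the raised chromosome 13, had the lowest of the XX ESC values. Adarb2 fell by 0.84 in XY cells, and the XX fall was deeper by 0.52 (adjusted p = 0.0474). The 7 other genes of the deaminase list did not pass in the XX comparison.

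Some genes were below 1 TPM in the 6 libraries of E11.5 XY EGC and XY ESC and lower in XX EGC than in XX ESC. Ube2l6, a conjugating enzyme for the interferon-induced modifier ISG15, was at 9.04 and 9.33 TPM in XX EGC and at 33.1, 23.8 and 34.2 TPM in XX ESC. It fell by 1.60 ± 0.17 (adjusted p = 0.000272), and the 6 E11.5 XY EGC and XY ESC libraries had at most 0.973 TPM. Aspa, an aspartoacylase, was at 2.95 and 2.65 TPM against 7.86, 10.1 and 9.13 TPM (-1.40 ± 0.22, adjusted p = 0.00256) and stayed below 1 TPM in the same XY libraries. Cd200, a membrane glycoprotein of the immune system, was at 2.76 and 0.349 TPM against 7.45, 5.04 and 7.58 TPM. The 2 XX EGC differed from each other for Cd200, and its call (-1.75 ± 0.36, adjusted p = 0.00866) was lost without EGC 9 (adjusted p = 0.1). Of 14 tested interferon response genes, Ube2l6 and Bst2 fell, none rose and 12 did not pass, where 9.35% of all genes fell and 4.49% rose. Bst2 was not called without EGC 7, EGC 9, ESC 1 or ESC 3 (adjusted p = 0.0898 without ESC 1 and 0.0852 without ESC 3).

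The keratins Krt18, Krt8 and Krt7 of simple epithelium and trophoblast were lower in XX EGC and uneven among the XX ESC, while Krt19 was higher (log2 difference 0.45, adjusted p = 0.0465). Krt18 was at 16.03 and 12.9 TPM in XX EGC and at 30.1, 64.3 and 23.9 TPM in XX ESC, and ESC 2 was far above the other ESC. Krt7 was at 1.18 and 0.747 TPM against 3.22, 6.91 and 2.09 TPM (-1.26 ± 0.29, adjusted p = 0.0145), lost without EGC 7 or EGC 9 (adjusted p = 0.0607 and 0.115). Krt8, the partner of Krt18, was at 10.6 and 8.10 TPM against 20.6, 40.2 and 14.4 TPM, and ESC 2 was again the highest. Krt18 and Krt8 fell by 1.27 ± 0.28 and 1.22 ± 0.30 (adjusted p = 0.0123 and 0.0179). Both calls were lost without EGC 7 (adjusted p = 0.0556 and 0.0664) or without EGC 9 (0.102 and 0.134). Of 12 tested trophoblast genes, 4 fell, 1 rose and 7 did not pass, and between 0 and 5 fell with 1 library left out. Krt19 was not followed through the alternatives, and after the length adjustment no trophoblast gene rose. Of all genes 4.49% rose and 9.35% fell without that adjustment.

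Of 23 tested naive pluripotency genes, which mark the ground state of ESC, none rose, 7 fell and 16 did not pass, where 9.35% of all genes fell. The falls came to 0 without EGC 7, 1 without EGC 9 and 3 without ESC 1, and the median log2 difference was -0.23. Il6st, the shared LIF receptor subunit, was at 20.7 and 22.1 TPM against 30.1, 27.2 and 38.5 TPM (-0.54 ± 0.12, adjusted p = 0.0117). Its partner Lifr was at 8.58 and 9.52 TPM against 15.0, 11.9 and 12.3 TPM (-0.48 ± 0.11, adjusted p = 0.0128). Tfcp2l1, a transcription factor downstream of LIF, was at 46.7 and 53.2 TPM against 88.5, 80.3 and 63.5 TPM (-0.61 ± 0.15, adjusted p = 0.0191). The fourth, Prdm14, was at 40.9 and 42.1 TPM against 58.7, 52.7 and 56.0 TPM (-0.42 ± 0.10, adjusted p = 0.0199). No value of the XX EGC reached the XX ESC for these 4 genes. All 4 calls were lost without EGC 7 (adjusted p = 0.103 to 0.16) and without EGC 9 (0.0516 to 0.0939). Those of Tfcp2l1 and Prdm14 were also lost without ESC 1 (0.0692 and 0.0666), and that of Tfcp2l1 without ESC 2 (0.0546). After the length adjustment 5 fell, and Il6st (adjusted p = 0.205) and Lifr (0.142) were not among them.

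Of the 14 general pluripotency genes 1 rose, 1 fell and 12 did not pass, where 4.49% of all genes rose and 9.35% fell. Lin28a, an RNA-binding protein, rose by 0.35 (adjusted p = 0.0295), but not without EGC 7, EGC 9, ESC 2 or ESC 3 (adjusted p = 0.0511 to 0.2). Trim71, a partner in the same let-7 pathway, fell by 0.79 (adjusted p = 0.00615), but not without EGC 9 (adjusted p = 0.0566). Among 19 tested genes of DNA methylation none rose and 2 fell (10.5%), near the 9.35% of all genes that fell. After the length adjustment 2 rose and 1 fell. Tet1, a 5-methylcytosine oxidase, was at 33.1 and 42.1 TPM against 82.2, 63.5 and 61.6 TPM. It fell by 0.86 ± 0.15 (adjusted p = 0.00398), and the adjusted p was 0.0563 without EGC 7. Dnmt1, Dnmt3a, Dnmt3b and Dnmt3l, the methyltransferase genes, did not pass.

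MAPK response genes differed between the XX and XY comparisons. Of 27 tested ERK targets and feedback genes, none rose and 6 fell in the XX comparison, where 9.35% of all genes fell, and in the XY comparison 15 rose and 2 fell. With 1 library left out the count of falls in XX ran from 1 to 6, and without EGC 9 it was 1. The XX difference was lower than the XY difference for 12 of them and higher for 1, where it was lower for 10% and higher for 6.50% of all genes. In all tested genes 12.3% were higher and 13.7% lower in E11.5 XY EGC than in XY ESC. Fos, an immediate early transcription factor, was at 29.3 and 19.3 TPM in XX EGC and at 51.8, 48.8 and 36.1 TPM in XX ESC. In XY EGC it was at 604, 711 and 565 TPM, against 73.9, 73.0 and 75.8 TPM in XY ESC. The XX difference (-0.89) was thus lower than the XY difference (3.05) by 3.95 on the log2 scale (adjusted p = 8.97e-07). The XX call for Fos was lost without EGC 9 (adjusted p = 0.0833).

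Fosb, its relative, was at 1.70 and 0.547 TPM in XX EGC and at 1.48, 1.03 and 0.902 TPM in XX ESC, and at 98.8, 114 and 95.4 TPM in XY EGC. Its XX difference (-0.05, adjusted p = 0.885) did not pass and lay 5.03 below the XY one. Egr1 and Atf3, further stress and growth response factors, had XX differences lower than the XY ones by 3.25 and 3.63. Dusp1, a phosphatase that turns MAPK off, was at 72.1 and 61.1 TPM against 96.9, 100.1 and 108 TPM (-0.61 ± 0.09, adjusted p = 0.00173), while it rose by 0.75 in XY cells. Klf6 fell by 0.49 in XX and rose by 1.79 in XY cells, and its XX call was lost without EGC 7 (adjusted p = 0.109) or EGC 9 (0.0513). Dusp9, an X-linked ERK phosphatase, was at 142 and 134 TPM in XX EGC and at 164, 159 and 167 TPM in XX ESC. It did not pass in XX (-0.24 ± 0.09, adjusted p = 0.0989), fell by 1.09 in XY cells, and the XX difference was higher by 0.85 (adjusted p = 0.00183).

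**Figure D5:**
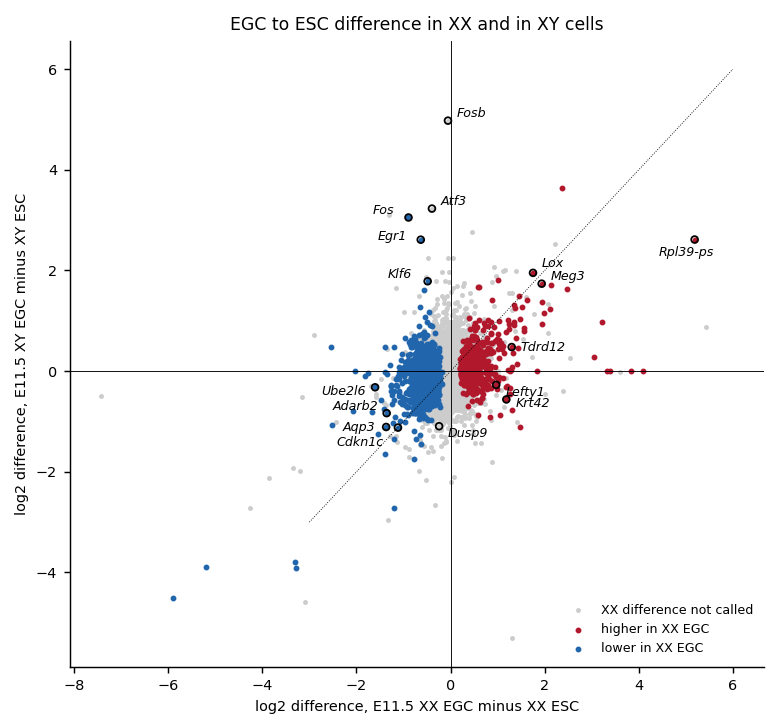
Log2 difference between EGC and ESC in XX cells (x axis) against that in E11.5 XY cells (y axis) for 13193 genes, coloured by the XX call, with a dotted line of equality. Meg3 and Lox lie near that line, Fosb and Fos lie high above it, and Rpl39-ps at 5.19 is the highest called row on the x axis.

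The XX and XY comparisons share no library. Of the 593 genes higher in XX EGC, 144 were also higher in XY EGC (24.3% of the XX list and 8.87% of the 1623 in the XY list). Of the 1234 lower genes, 273 were also lower in XY EGC (22.1%, and 15.1% of 1803). Opposite calls were made for 38 genes higher in XX (6.41%) and 118 lower in XX (9.56%). Among all tested genes, 12.3% were higher and 13.7% lower in E11.5 XY EGC than in XY ESC. The difference between the comparisons passed for 858 genes as higher in XX (6.50%) and for 1321 as lower (10%). Among the markers, Meg3, Lox and Aqp3 did not differ between XX and XY beyond the threshold (adjusted p = 0.349, 0.397 and 0.148), and Tdrd12 and Adarb2 did.

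Of 23 tested mitotic genes, 1 rose and 4 fell, where 4.49% of all genes rose and 9.35% fell. Cenpf, a kinetochore protein, was at 28.5 and 33.7 TPM against 73.7, 65.0 and 62.3 TPM (-1.08 ± 0.11, adjusted p = 0.000204). Mki67, the proliferation marker, was at 38.9 and 44.2 TPM against 78.3, 67.3 and 64.1 TPM (-0.74 ± 0.12, adjusted p = 0.0027). Cdk1, the mitotic kinase, was higher, at 625 and 584 TPM against 475, 485 and 491 TPM (0.32 ± 0.07, adjusted p = 0.0143), and not called without EGC 7 or EGC 9 (adjusted p = 0.139 and 0.054). After the length adjustment 3 of the 23 rose and 3 fell, and with 1 library left out between 2 and 5 fell.

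In glycolysis 6 of 23 genes fell and Eno3 rose. Of all genes 4.49% rose and 9.35% fell, to be set beside this and the Polycomb list below. Hk1, a hexokinase, was at 42.6 and 40.7 TPM against 57.1, 56.2 and 55.5 TPM (-0.43 ± 0.06, adjusted p = 0.00204), with no overlap. After the length adjustment 4 of the 23 fell, and without EGC 7 or EGC 9 it was 1. Of 25 Polycomb genes 4 fell and none rose, after the length adjustment 2 fell, and with 1 library left out between 1 and 4 fell. Scml2, an X-linked germline Polycomb gene, was at 45.7 and 50.9 TPM against 103, 80.8 and 83.0 TPM (-0.86 ± 0.20, adjusted p = 0.016), a call lost without EGC 7, EGC 9 or ESC 1 (adjusted p = 0.0595 to 0.129). Among 19 p53 targets 1 fell, where 9.35% of all genes did, and 3 fell without ESC 3, with Trp53inp1 (adjusted p = 0.0135) and Eda2r (0.0147) added. The 1 was Pmaip1, a pro-apoptotic gene, at 157 and 149 TPM against 235, 221 and 229 TPM (-0.57 ± 0.10, adjusted p = 0.00416). It rose by 0.73 in XY cells.

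With all 5 libraries no member passed among 22 cholesterol synthesis, 9 HOX and 6 genes of the 2-cell-like state. Without ESC 3, 4 HOX genes fell and 3 cholesterol genes rose, and after the length adjustment 1 HOX gene fell and 1 cholesterol gene rose. Of 6 mesoderm genes 3 fell, of 10 endoderm genes 1 fell, of 8 neuroectoderm genes 1 rose, and of 14 formative genes 2 fell, where 4.49% of all genes rose and 9.35% fell. With 1 library left out the falls ran from 0 to 2 for mesoderm, 0 to 3 for endoderm and 0 to 2 for formative genes. Among 9 WNT targets 1 rose and 1 fell, and among 15 Nodal and BMP targets 1 rose and 1 fell (after the length adjustment none of the latter fell). Of the mesoderm genes, Gata2 was at 1.66 and 2.13 TPM against 4.70, 5.22 and 3.48 TPM (-0.91 ± 0.17, adjusted p = 0.00567), lost without EGC 7 (adjusted p = 0.0686). Otx2, a formative factor, was at 62.0 and 59.5 TPM against 92.8, 85.5 and 127 TPM (-0.71 ± 0.17, adjusted p = 0.0178), lost without EGC 7 or EGC 9 (adjusted p = 0.0931 and 0.109).

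The X chromosome was a little lower in XX EGC. Its score was 0.538 and 0.597 in XX EGC and 0.670, 0.667 and 0.622 in XX ESC, without overlap, and the XY and XO libraries lay between -0.375 and -0.263. On autosomes other than 13, 4.71% of the tested genes rose and 8.64% fell. Of 573 tested X-linked genes 10 rose and 95 fell (16.6%). After the length adjustment 12 rose and 70 fell, and with EGC 9 and ESC 3 left out 3 rose and 75 fell. Without EGC 7 alone it was 5 and 23, without EGC 9 alone 4 and 38, and without ESC 1 or ESC 2 alone 56 and 63 fell. Rlim, an X-linked ubiquitin ligase that promotes Xist expression, was at 36.0 and 41.7 TPM against 62.5, 66.6 and 54.5 TPM (-0.64 ± 0.11, adjusted p = 0.00461), lost without EGC 7 (adjusted p = 0.0611). On chromosome 13, 5 of 478 genes rose and 88 fell (18.4%), without ESC 3 it was 28 and 57, without EGC 7 it was 3 and 11, without EGC 9 it was 0 and 20, and after the length adjustment 6 and 39. Jarid2, Il6st and Klf6 lie on this chromosome, and for Jarid2 and Il6st ESC 3 had the highest value. Without ESC 3 all 3 kept their calls, and without EGC 9 they lost them (adjusted p = 0.0513 to 0.0576).

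Small RNAs and processed pseudogenes filled the top of the list of higher genes. Rpl39-ps was at 169 and 1243 TPM in XX EGC and at 7.34, 11.3 and 18.5 TPM in XX ESC. Its call (5.19 ± 0.97, adjusted p = 0.00598) was lost without EGC 9 (adjusted p = 0.0765). RNase_MRP, a ribosomal RNA processing RNA, was at 8.59 TPM in EGC 7, 315 TPM in EGC 9 and 2.83 to 6.95 TPM in XX ESC, and without EGC 9 the adjusted p was 0.451 (0.056 to 0.119 without 1 of the XX ESC). Scarna10 and Rps2-ps6 were likewise lost without EGC 9 (adjusted p = 0.112 and 0.107). Rpl19-ps11 kept its call, at 61.3 and 98.8 TPM against 21.1, 18.1 and 17.5 TPM (1.99 ± 0.18, adjusted p = 9.82e-05). Reads of such copies can be shared with their parent genes, so these values are uncertain.

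Outside the naming rule, and picked after their values were seen, 2 kinds of rows were listed at 0 in all XX EGC or in all XX ESC. Gm10108, a processed pseudogene, was listed at 0 in both XX EGC and at 64.7, 53.5 and 57.9 TPM in XX ESC. The rows AC165349.1, AC165349.2, AC165349.4 and AC165349.5, which carry only clone names, were listed at 0 in all 3 XX ESC. AC165349.1 was at 10.99 and 23.5 TPM in XX EGC and at 13.2 TPM in EGC 1 of the XY lines, and 0 in the other 12 libraries. No fold is given against a group listed at 0.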

How the data were processed

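Polyadenylated RNA of 15 libraries was sequenced as paired ends. The authors deposited a table of TPM (values that sum to 1000000 per library). Per the submitters' processing notes, STAR 2.3.0, HTSeq 0.6.0, Picard 1.100, SAMtools 0.1.18.0 and edgeR 3.8.6 were used with GRCm38. Their roles are not given in the sources used here. The table holds no read counts, so depth is unknown and no interval or detection floor was computed. Long and short transcripts can gain or lose TPM with RNA quality.

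The test was limma 3.58.1 (R 4.3.3), fitted to log2(TPM + 1): 1 mean per header label in 1 fit of all 15 libraries (9 residual degrees of freedom), mean-variance trend, 2-sided, Benjamini-Hochberg adjustment over 13193 genes, threshold 0.05. Header cells left blank took the nearest label on their left. The fit was tested on simulated data. Positions and lengths came from GENCODE M21 (89.2% of 34372 genes matched). Python 3.11.15 drew the figures. The comparison, its members and the gene lists were chosen with earlier results of these data known. Genes named were the 5 markers, the 10 largest called differences in each direction at 5 TPM or more without overlap (predicted genes and bare identifiers left out), up to 4 members of each list, Dusp9, Xist and the 5 largest XX to XY differences in each direction. Genes outside it are members of these lists or are said to be so. Alternatives were other pseudocounts, filters, scalings, a fibroblast covariate, no chromosome 13, each library left out and a transcript-length adjustment.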

Additional observations from a re-analysis of the deposited data

Results flagged for a closer look

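In chromosome scores, 38 sets were checked for a library far from the rest, and chance flags about 1 in 20. Each set held the scores of 1 autosome in all EGC or in all ESC libraries, whatever their karyotype. ESC 3 stood out on chromosome 13 (0.474). The XO library EGC 8 stood out on chromosome 12 (0.412) and, by a small amount, on chromosome 2 (-0.0425).

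Of 132 named genes, 55 had an EGC to ESC difference that differed between XX and XY cells (interaction in limma, adjusted p under 0.05). Of all genes 6.50% differed as higher in XX and 10% as lower. The 132 include up to 10 genes picked for the largest such differences, so part of the 55 follows from the choice. Values are log2, XX minus XY. MAPK and stress genes had lower XX differences: Fosb -5.03, Fos -3.95, Atf3 -3.63, Egr1 -3.25, Klf6 -2.27, Dusp1 -1.35, Dusp16 -0.86, Pmaip1 -1.30, Trp53inp1 -1.16 and Eda2r -1.12. Dusp9 was higher by 0.85. Germline and Polycomb genes gave -0.98 for Tuba3b, -1.13 for Brdt, -0.79 for Xlr, -0.62 for Mov10l1, -1.41 for Scml2 and -0.59 for Aebp2, with Tdrd12 at 0.82 and Dnd1 at 0.79. Developmental genes gave -2.73 for Dll1, -1.24 for Gata2, -0.84 for Otx2, -0.80 for Hoxc13 and -0.50 for Skil, with Lefty1 at 1.24, Tubb3 at 1.65, Ina at 1.76 and Amn at 0.67. The LIF receptor subunits Il6st and Lifr both gave -0.74, and Lin28a gave 0.62.

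Imprinted genes gave -0.41 for Snrpn, -0.54 for Igf2r and -1.57 for Dio3. The X inactivation centre gave -0.86 for Rlim and -0.67 for Chic1. Genes low in XY cells gave -1.28 for Ube2l6, -1.37 for Aspa, -1.72 for Cd200 and -0.96 for Cyp2b23. Further genes were lower in XX: S100a13 by -1.41, Adarb2 by -0.52, Fn1 by -0.52, Hk1 by -0.32, mt-Nd1 by -0.66 and mt-Nd4 by -0.67. Further genes were higher in XX: Dok2 by 1.93, Krt42 by 1.75, Serpinf1 by 1.28, Loxl2 by 0.54, Fdps by 0.53 and Cdk1 by 0.33. Histone and pseudogene rows gave 2.08 for Hist1h4n, 2.18 for Eif4a-ps4 and 0.84 for Rpl19-ps11. No explanation was tested for these differences, and those of single genes were not followed with a library left out.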

How the results depend on the processing

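Among the 132 named genes, none that was called in either run changed direction in an alternative run. The other genes were not checked for a change of direction. Counts of higher and lower genes moved by over 1.5 times in the following. With only the libraries of the comparison in the fit, 243 genes were higher and 370 lower. Quantile normalization called 969 higher, and the length adjustment called 730 lower. The fibroblast covariate left 24 higher and 46 lower (at least 2-fold, 16 and 22). At least 2-fold counts were 28 and 17 with a pseudocount of 5, and 111 were lower with a pseudocount of 0.1. Without EGC 9 and ESC 3 together, 219 were higher and 815 lower. With 1 library left out, higher genes ran from 125 to 664, lower genes from 219 to 1771, 2-fold higher from 36 to 66, 2-fold lower from 44 to 71, and XX to XY differences from 261 to 1022 (higher) and 458 to 1978 (lower). The cause of these moves was not tested. Of 86 called named genes, 15 stayed called in every alternative and 27 with each XX library left out. The length adjustment ended the calls of Jarid2, Mov10l1, Skil, Snd1, mt-Nd1 and mt-Rnr1 (adjusted p 0.0548 to 0.141) besides those given above. No paired analysis was possible because the labels name no unit shared by an EGC and an ESC library. Depth limits could not be given from TPM.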
